A study of Homo sapiens with 4 samples.

Results

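The SLC25 genes encode the mitochondrial carrier family, the transporters that move metabolites, nucleotides and cofactors across the inner mitochondrial membrane. They were taken here as all genes whose name in the files is SLC25A followed by a number. There are 48 of them among 60617 genes listed. Of these, 43 had 10 or more counts summed over the libraries and 42 were tested. They were compared by the class of substrate they carry. Poly-A RNA came from spheres of U87MG, a human glioblastoma cell line, kept in stem cell medium (DMEM/F12 containing EGF at 20 ng/ml, bFGF at 20 ng/ml, N2 and 2% B27). Spheres given abemaciclib, which blocks CDK4 and CDK6, were set against untreated spheres, all at day 14, with 2 libraries per group. The sources used here give neither the dose nor any vehicle for the untreated spheres. Nothing says that the libraries of a group are separate cultures, so the p-values reflect the spread between these libraries alone, possibly a technical one.

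Carriers of this family share a fold built of repeated membrane domains and mostly work as exchangers, letting a substrate in as another goes out. They feed ADP and phosphate to ATP synthase, run the malate-aspartate shuttle that brings reducing equivalents into the matrix, export citrate for lipid synthesis, and supply the matrix with iron, glutathione, NAD and nucleotides. In glioma and other tumour cells they are studied as the link between cytosolic and mitochondrial metabolism. Several substrates have paralogous carriers that differ in the tissues where they are expressed.

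The libraries held 23684260 and 33226884 expected counts (abemaciclib) and 27485206 and 33418075 (untreated). An expected count is an estimate of the reads of a gene that need not be whole. Levels are given in CPM, counts scaled to library size, after TMM scaling, which adjusts library totals for composition, and on that scale 3 counts equal 0.0886 to 0.125 CPM, depending on the library. Genes encoded in mitochondrial DNA held 11.8% and 11.7% of the counts after abemaciclib, against 4.27% and 4.66% in untreated spheres. With those genes left out of the table, 24 carriers were again called higher and 12 lower. Of the tested carriers, 17 share exons with a gene on the opposite strand and 5 with another gene on their own strand. The kit marks strand, but whether counting used it is not stated in the sources at hand, so values of such genes are less certain. The 7 U87MG and glioblastoma markers summed to 4894 and 4948 CPM after abemaciclib and 7700 and 7117 CPM untreated. Of 5 tested, VIM, NES, CD44 and OLIG2 were called lower and SOX2 higher. That is 80% lower, beside 39.3% of all genes tested, and 20% higher, beside 38%. SOX2 had 11 and 12 counts after abemaciclib and 1 and 2 counts untreated. It passed the count filter through its abemaciclib libraries alone, so its call is no support beyond the counts themselves. VIM, NES and CD44 were well expressed in all libraries, while S100B, GFAP and SOX2 averaged at most 0.406 CPM in either group and OLIG2 averaged 2.42 CPM after abemaciclib and 4.87 CPM untreated. The part of these markers in the results below was not tested. Markers of leukocytes, endothelium, oligodendrocytes and neurons summed to 8.72 and 7.62 CPM after abemaciclib and 14.4 and 15.4 CPM untreated, over 8 genes, of which 4 were tested, with AIF1 and MOG at 0 throughout. Of those tested, 2 were called higher and 1 lower (75%, where 77.3% of all genes tested were called). PECAM1, an endothelial adhesion molecule, was the only member of that list called lower, at 1.14 CPM after abemaciclib and 9.78 CPM untreated. VWF, also an endothelial marker, was called higher, at 6.04 CPM after abemaciclib and 4.54 CPM untreated. The endothelial marker CDH5 averaged 0.0771 CPM after abemaciclib and 0.0611 CPM untreated and was not tested. PTPRC, of leukocytes, was the other called higher, at 0.581 CPM after abemaciclib and 0.12 CPM untreated. It passed the count filter through its abemaciclib libraries alone, so its call is no support beyond the counts themselves. In such bulk samples fewer expressing cells and less RNA per cell cannot be told apart.

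More carriers were higher than lower after abemaciclib. Of the 42 tested, 24 were called higher and 12 lower, and 6 missed the threshold (edgeR quasi-likelihood test, two-sided, Benjamini-Hochberg adjusted p under 0.05 over all 17207 genes tested). That is 85.7% of the carriers called, beside 77.3% of all genes tested. By direction, 57.1% of the carriers were higher, beside 38% of all genes, and 28.6% were lower, beside 39.3%. The median log2 fold change of the carriers was 0.35, and that of all genes was -0.01. A rise of 2-fold or more was called in 10 carriers (23.8%, beside 13.8% of all genes), and a fall of that size in 3 carriers (7.14%, beside 17.4%). Both the 12 lower and these 3 include SLC25A41, which passed the count filter through its untreated libraries alone. No overlap between the groups was seen in 37 of the 42 (88.1%), close to the 87.9% seen over all genes. These shares describe the family and were given no test of their own.

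**Figure D1:**
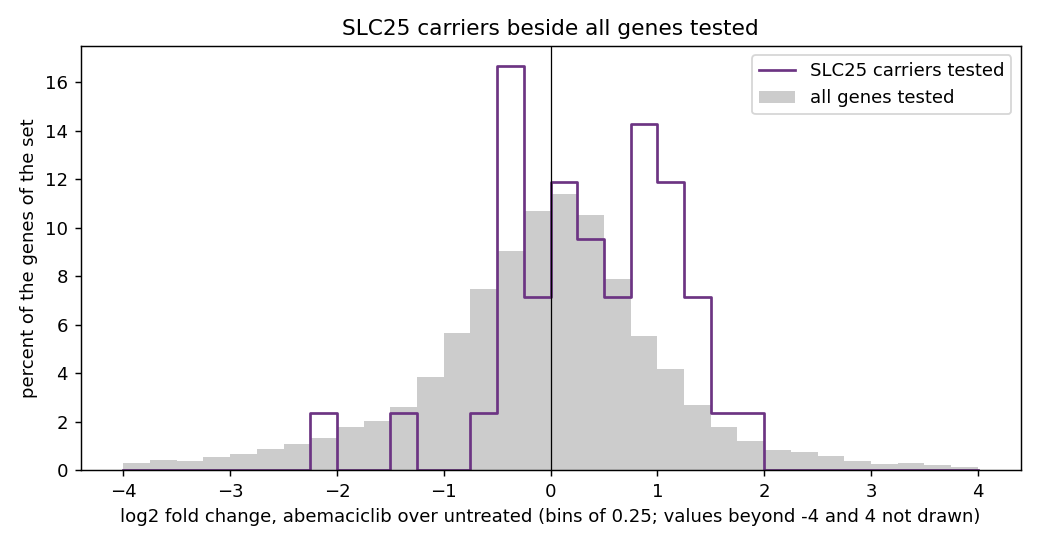
Share of genes (percent of each set) by log2 fold change, abemaciclib over untreated, in bins of 0.25, for the 42 SLC25 carriers tested (line) and all 17207 genes tested (grey bars). SLC25A41, below -4, is outside the plotted range. The bin that starts at -0.5 holds 7 carriers and the bins that start at 0.75 and 1 hold 6 and 5, and the median of the carriers is 0.35 against -0.01 for all genes.

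The summed level of the family was slightly higher after abemaciclib, and its make-up differed more. The 48 carriers summed to 1748 and 1743 CPM after abemaciclib, against 1628 and 1655 CPM in untreated spheres. SLC25A37, a carrier of iron, held 4.74% and 4.68% of the family's CPM after abemaciclib, against 23.1% and 22.7% in untreated spheres. Without it the sums were 1665 and 1661 CPM after abemaciclib and 1252 and 1280 CPM untreated. Per kilobase of transcript (median length of the basic protein-coding transcripts in GENCODE 29), the phosphate carrier SLC25A3 and the ADP/ATP carrier SLC25A5 ranked first and second in both groups, at 237.1 and 171.3 CPM per kilobase after abemaciclib and 206.5 and 101.8 CPM per kilobase untreated. The place after them went to SLC25A39 after abemaciclib (130.8 CPM per kilobase) and to SLC25A37 in untreated spheres (77.8 CPM per kilobase), and SLC25A37 ranked 11 after abemaciclib. The order depends on the length taken: with the longest coding transcript, SLC25A3 had 52.9 CPM per kilobase after abemaciclib and 46.1 CPM per kilobase untreated and ranked 4 in both groups, and SLC25A5 ranked first.

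**Figure D2:**
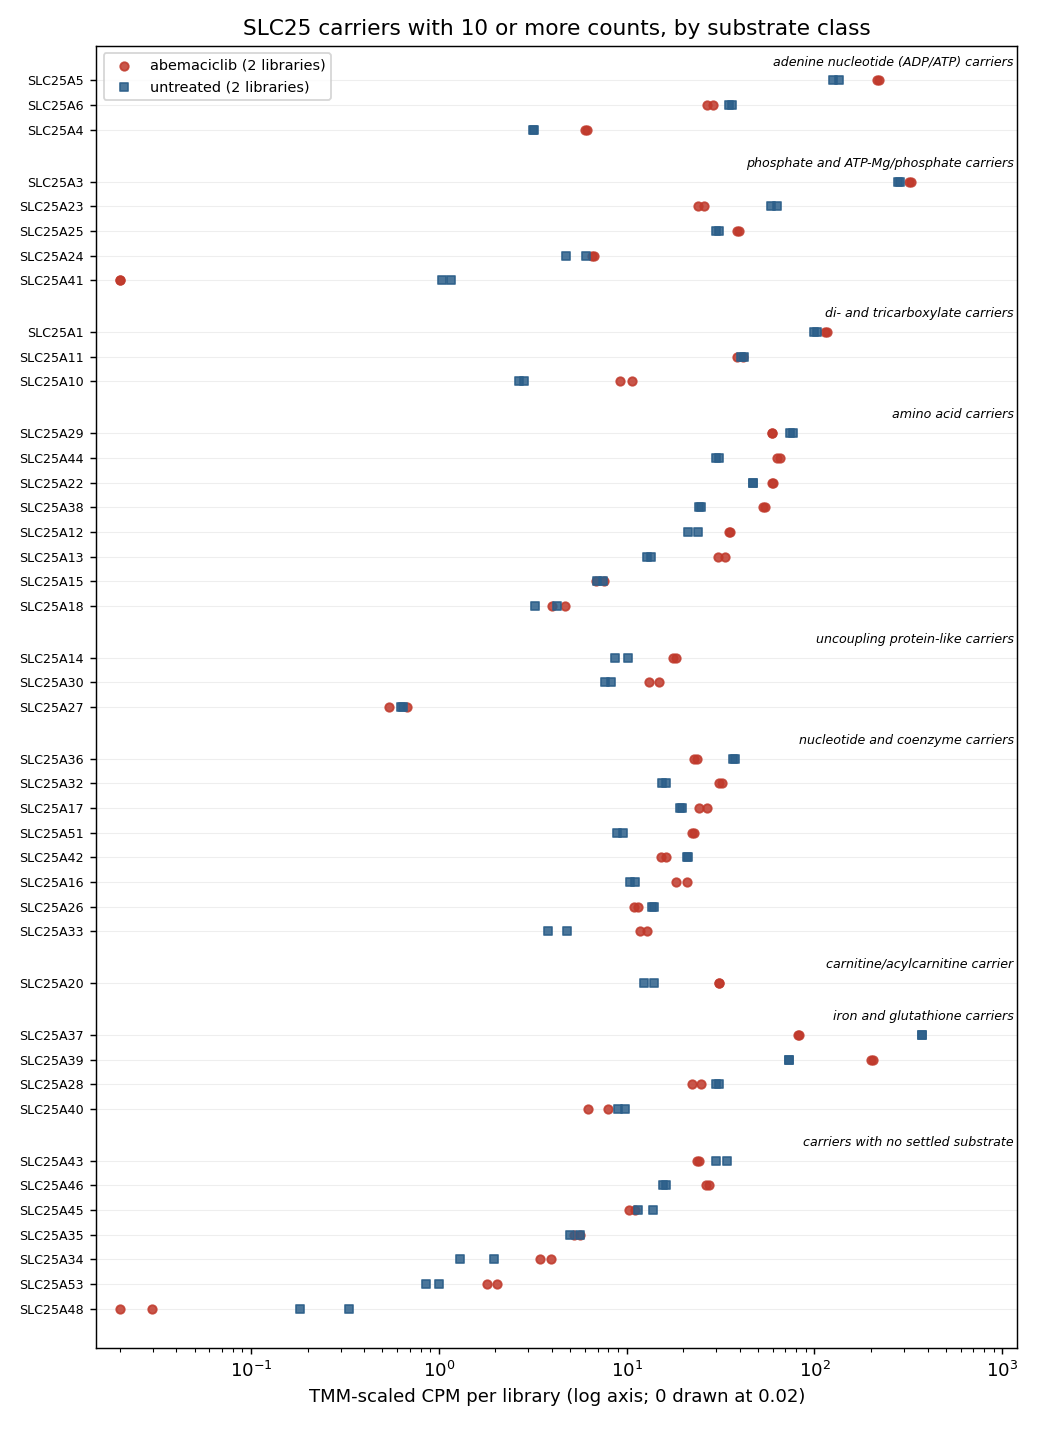
TMM-scaled CPM (log axis) of 42 of the 43 carriers with 10 or more counts, by substrate class, with 1 point per library (abemaciclib as red circles, untreated as blue squares). The groups stand apart for most carriers, widest for SLC25A37, SLC25A10, SLC25A39 and SLC25A33 among the abundant or well-measured ones, and SLC25A41 was at 0 in both abemaciclib libraries.

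The carriers of iron and glutathione held the largest fall among well-expressed members and a large rise. SLC25A37 is mitoferrin 1, which brings iron into the matrix for heme and iron-sulfur clusters (ENSG00000147454, GRCh38 chromosome 8, 23528805 to 23575463). It had 82.8 and 81.6 CPM in the abemaciclib libraries and 375.5 and 375.3 CPM in the untreated libraries. The libraries of each group lie close together and the groups are far apart, a 4.57-fold fall (log2 fold change -2.19 ± 0.03, SE, edgeR adjusted p = 2.61e-31). SLC25A28, mitoferrin 2, the form expressed outside the red cell lineage, had 22.2 and 24.9 CPM after abemaciclib and 30.9 and 29.7 CPM untreated. It fell much less, by 0.36 ± 0.07 on the log2 scale (edgeR adjusted p = 2.41e-05). The ratio of SLC25A28 to SLC25A37 counts was 0.268 and 0.305 after abemaciclib, against 0.0822 and 0.0792 in untreated spheres, so it changed 3.55-fold. This holds for any transcript lengths that are the same in both groups, and the use of transcripts was not examined. Per kilobase, SLC25A37 made up 52.9% and 49.7% of the mitoferrin transcript after abemaciclib and 78.5% and 79.2% in untreated spheres.

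SLC25A39, which is required for glutathione import into mitochondria (ENSG00000013306, chromosome 17, 44319625 to 44324870), had 204.6 and 198.9 CPM after abemaciclib and 73.4 and 73.2 CPM untreated. The groups do not overlap, and the rise was 2.75-fold (1.46 ± 0.04, edgeR adjusted p = 3.72e-26). Its paralogue SLC25A40 had 6.19 and 7.94 CPM after abemaciclib and 9.04 and 9.78 CPM untreated, which is -0.40 ± 0.12 on the log2 scale (edgeR adjusted p = 4.30e-03). The call on SLC25A40 was lost without abemaciclib replicate 1 (-0.23, edgeR adjusted p = 0.122) and in DESeq2 (adjusted p = 0.0623). SLC25A39 made up 98.9% and 98.5% of this pair's transcript per kilobase after abemaciclib and already 95.5% and 95.2% in untreated spheres. The class median of -0.38 over 4 genes therefore lies between members that moved far apart, and it was -0.25 without abemaciclib replicate 1 and -0.52 without abemaciclib replicate 2.

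The ADP/ATP carriers exchange matrix ATP for cytosolic ADP and supply the substrate of ATP synthase. SLC25A5, the form of proliferating cells (ENSG00000005022, chromosome X, 119468400 to 119471319), had 220.6 and 215.9 CPM after abemaciclib and 125 and 134.4 CPM untreated. It rose 1.68-fold (0.75 ± 0.04, edgeR adjusted p = 3.03e-18). SLC25A4, the form of heart and skeletal muscle, was far less abundant, at 6.15 and 5.99 CPM after abemaciclib and 3.22 and 3.18 CPM untreated, and rose by 0.92 ± 0.15 on the log2 scale (edgeR adjusted p = 3.04e-06). SLC25A6, a form expressed in most tissues (chromosome X, 1386152 to 1392724), went the other way, with 28.9 and 26.7 CPM after abemaciclib and 36.3 and 35 CPM untreated (-0.36 ± 0.06, edgeR adjusted p = 4.47e-06). Per kilobase SLC25A5 made up 91.8% and 92.2% of the ADP/ATP carrier transcript after abemaciclib and 84.3% and 85.6% untreated, and SLC25A6 7.44% and 7.04% against 15.1% and 13.8%. The germ cell form SLC25A31 had 3 counts over all libraries and was not tested. SLC25A5 has many processed pseudogenes in the genome. The 41 SLC25 pseudogenes listed, which belong to the whole family, held 4 and 11 counts after abemaciclib and 3 and 5 counts untreated in all. These counts do not show whether reads of such copies were assigned to SLC25A5, which was not tested.

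Among the carriers of phosphate, the abundant one changed little. SLC25A3, which brings phosphate in for ATP synthase (ENSG00000075415, chromosome 12, 98593591 to 98606379), had 324.7 and 319.7 CPM after abemaciclib and 276.8 and 284.4 CPM untreated. The groups do not overlap, but the rise was only 1.15-fold (0.20 ± 0.03, edgeR adjusted p = 1.01e-06). The ATP-Mg/phosphate carriers adjust the adenine nucleotide pool of the matrix, most of them under control of calcium, and they split. SLC25A23 fell, at 25.9 and 23.9 CPM after abemaciclib and 58.9 and 63 CPM untreated, a 2.46-fold fall (-1.3 ± 0.06, edgeR adjusted p = 2.05e-19). SLC25A25 rose, at 38.8 and 39.8 CPM after abemaciclib and 31 and 30.1 CPM untreated (0.37 ± 0.06, edgeR adjusted p = 1.04e-06), and per kilobase it held 47% and 49.2% of the set's transcript after abemaciclib, against 25.3% and 23.3% untreated. SLC25A24 had 6.52 and 6.73 CPM after abemaciclib and 4.74 and 6.11 CPM untreated and did not pass (0.28 ± 0.14, edgeR adjusted p = 0.067). It passed with library totals as the scale (adjusted p = 0.03) and without untreated replicate 2 (adjusted p = 0.00735).

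SLC25A41, the ATP-Mg/phosphate carrier that lacks the calcium-binding domain, was not detected after abemaciclib. It had 0 counts in both abemaciclib libraries and 28 and 38 counts in the untreated libraries. With 3 counts taken as the floor of the whole group it was at least 21.3-fold lower (edgeR adjusted p = 7.63e-09). It passed the count filter through its untreated libraries alone, so this p-value is no support beyond the counts themselves. The gene lies 2.3 kb downstream of SLC25A23 on the same strand of chromosome 19 (6426037 to 6433779, with SLC25A23 at 6436079 to 6465203), and both fell. The median of the class was 0.20 over 5 genes, and 0.12 without untreated replicate 1.

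**Figure D3:**
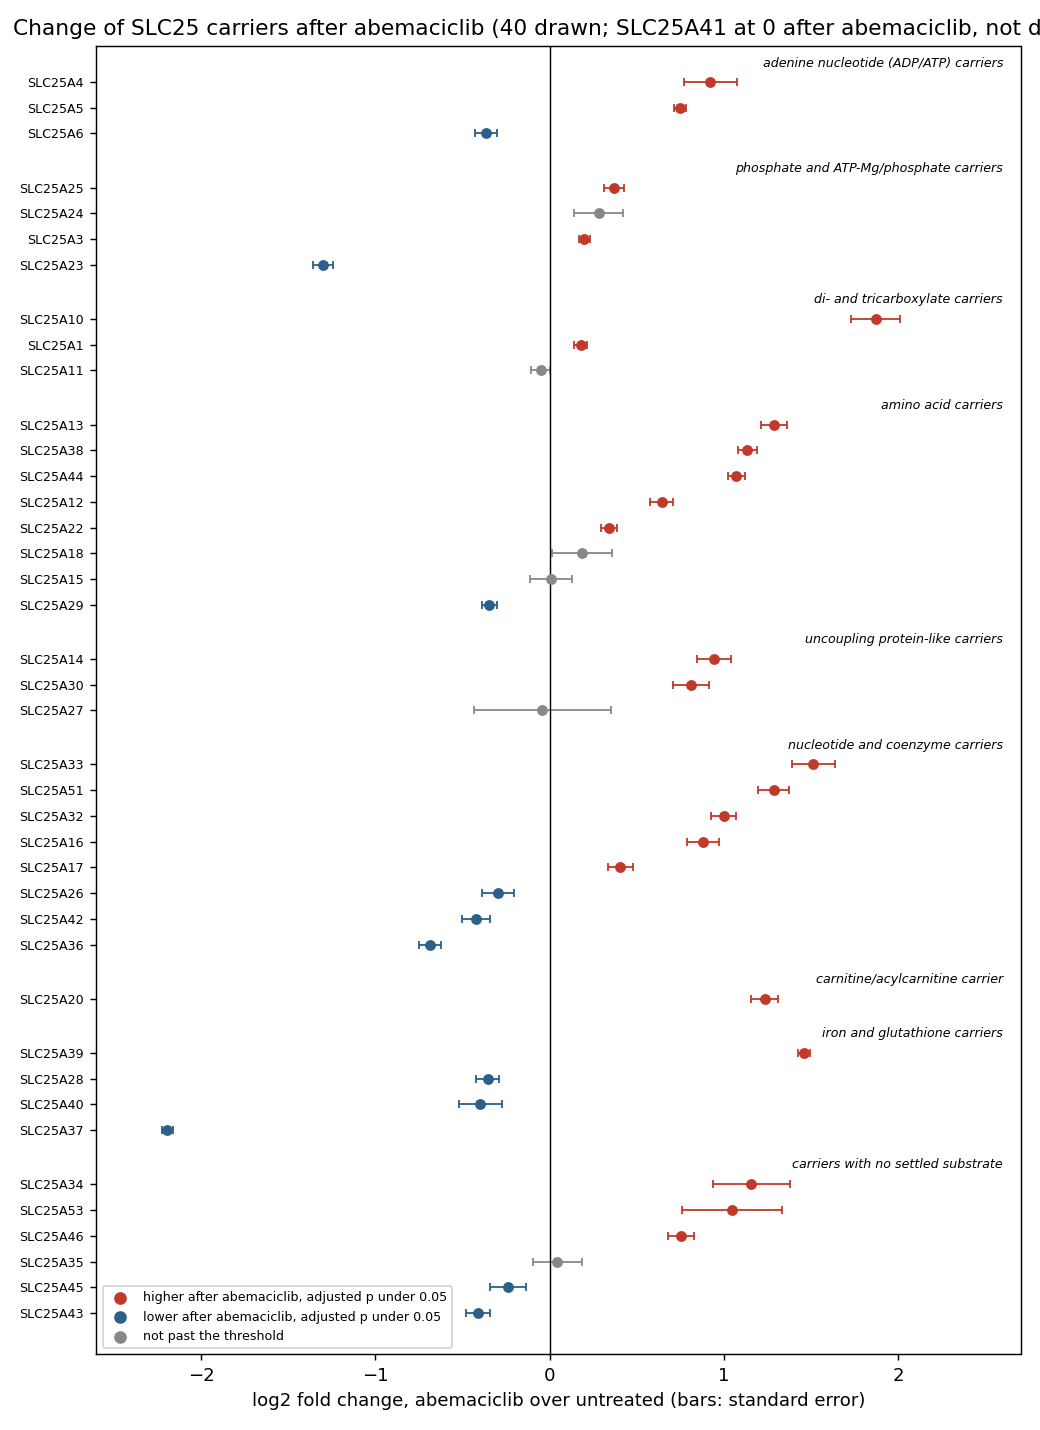
Log2 fold change (abemaciclib over untreated) with its standard error for 40 of the 42 tested carriers by substrate class, red for higher, blue for lower and grey for not past the threshold. Values run from -2.19 (SLC25A37) to 1.87 (SLC25A10), and each class with more than 3 tested members holds carriers on both sides of 0.

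The di- and tricarboxylate carriers link the citric acid cycle with the cytosol. SLC25A10, which exchanges malate and succinate for phosphate (ENSG00000183048, chromosome 17, 81712236 to 81721016), had the largest rise of the tested carriers. It had 9.26 and 10.7 CPM after abemaciclib and 2.85 and 2.66 CPM untreated, a 3.65-fold rise (1.87 ± 0.14, edgeR adjusted p = 2.67e-13). It shares exons on its own strand with the annotated gene AC139530.2, so reads may be assigned to either, though its expected counts were whole in every library. SLC25A1, the citrate exporter, was much more abundant, at 113.4 and 116.7 CPM after abemaciclib and 99.7 and 103.5 CPM untreated, and rose slightly (0.18 ± 0.04, edgeR adjusted p = 5.77e-05). SLC25A11, which exchanges oxoglutarate for malate in the malate-aspartate shuttle, had 41.8 and 38.6 CPM after abemaciclib and 40.6 and 42.3 CPM untreated. Its groups overlap and it did not pass (-0.05 ± 0.06, edgeR adjusted p = 0.401). The oxoadipate carrier SLC25A21 was at 0 in all libraries. The class median was 0.18.

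Of the 8 amino acid carriers tested, 5 were higher, 1 was lower and 2 did not pass, with a median of 0.49. The share called, 75%, was near the 77.3% of all genes tested. The aspartate/glutamate carriers, the calcium-sensitive step of the malate-aspartate shuttle, both rose. SLC25A13, citrin, had 30.6 and 33.3 CPM after abemaciclib and 13.5 and 12.9 CPM untreated, a 2.44-fold rise (1.29 ± 0.08, edgeR adjusted p = 4.38e-16). SLC25A12, aralar, the form of brain and muscle, had 35.5 and 35.1 CPM after abemaciclib and 21.1 and 23.9 CPM untreated (0.64 ± 0.07, edgeR adjusted p = 3.71e-10). The ratio of SLC25A13 to SLC25A12 counts was 0.863 and 0.949 after abemaciclib and 0.639 and 0.538 untreated, so the share of citrin was higher after the drug.

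SLC25A38, which imports glycine for heme synthesis, rose 2.19-fold. It had 54.5 and 53.4 CPM after abemaciclib and 24.9 and 24.3 CPM untreated (1.13 ± 0.06, edgeR adjusted p = 3.99e-18). SLC25A44, described in brown fat as a carrier of branched-chain amino acids, had 65.3 and 63.2 CPM after abemaciclib and 30.1 and 30.9 CPM untreated (1.07 ± 0.05, edgeR adjusted p = 1.79e-18). In both genes the replicates lie close together and the groups are well apart. SLC25A22, the main glutamate carrier here, rose by 0.34 ± 0.05 (59.5 and 60.1 CPM after abemaciclib, 47.2 and 47.3 CPM untreated, edgeR adjusted p = 8.46e-08). Its paralogue SLC25A18 averaged 4.34 CPM after abemaciclib and 3.75 CPM untreated, with overlapping groups. SLC25A29, a carrier of basic amino acids and the most abundant of the class by CPM in untreated spheres, fell by 0.35 ± 0.04 (59.4 and 59.4 CPM after abemaciclib, 74.4 and 76.5 CPM untreated, edgeR adjusted p = 1.01e-08). The ornithine carrier SLC25A15 averaged 7.22 CPM after abemaciclib and 7.21 CPM untreated (0.01 ± 0.12), and its paralogue SLC25A2 had 3 counts in all.

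SLC25A20 brings acylcarnitines into the matrix for fatty acid oxidation (ENSG00000178537, chromosome 3, 48856931 to 48898993). It had 30.9 and 30.9 CPM after abemaciclib and 14 and 12.4 CPM untreated. The rise was 2.35-fold, with no overlap between the groups (1.23 ± 0.08, edgeR adjusted p = 1.67e-15). Of the uncoupling protein-like carriers, named for their sequence and of debated transport function, SLC25A14 averaged 18 ± 0.491 CPM after abemaciclib and 9.38 ± 1.08 CPM untreated (SD, n = 2 each), and SLC25A30 13.9 ± 1.21 CPM after abemaciclib and 7.98 ± 0.387 CPM untreated. Both rose (0.94 ± 0.10 and 0.81 ± 0.10). SLC25A27, a neuronal member, had 74 counts over all libraries and did not pass (-0.04 ± 0.39, edgeR adjusted p = 0.927).

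Every tested carrier of nucleotides and coenzymes passed the threshold, 6 of 9 higher (66.7%, beside 38% of all genes tested) and 3 lower (33.3%, beside 39.3%). The pyrimidine nucleotide carriers, which bring the precursors of mitochondrial RNA and DNA into the matrix, moved in opposite directions. SLC25A33 (ENSG00000171612, chromosome 1, 9539482 to 9585179) had 11.8 and 12.8 CPM after abemaciclib and 3.81 and 4.80 CPM untreated, a 2.85-fold rise (1.51 ± 0.12, edgeR adjusted p = 2.07e-12). Its expected counts were not whole in abemaciclib replicate 2 (434.6) and in the untreated libraries (102.5 and 156.7), so its level is less certain. SLC25A36 (ENSG00000114120, chromosome 3, 140941830 to 140980961) had 23.6 and 22.9 CPM after abemaciclib and 37.8 and 36.9 CPM untreated (-0.69 ± 0.06, edgeR adjusted p = 1.77e-11). The ratio of SLC25A33 to SLC25A36 counts was 0.503 and 0.561 after abemaciclib and 0.101 and 0.130 untreated, a 4.61-fold change and the largest of the 10 paralogue ratios computed. SLC25A36 remained the more abundant of the pair per kilobase in every library, at 76% and 74% of their transcript after abemaciclib and 94% and 92.5% untreated. With the longest coding transcript as the length, SLC25A33 made up 39% after abemaciclib and 12.2% untreated on average.

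The carriers of coenzyme A also parted. SLC25A16 had 18.3 and 20.8 CPM after abemaciclib and 11.1 and 10.4 CPM untreated (0.88 ± 0.09, edgeR adjusted p = 3.92e-10). SLC25A42 had 15.2 and 16.2 CPM after abemaciclib and 21 and 21.2 CPM untreated (-0.42 ± 0.08, edgeR adjusted p = 1.65e-05). By counts SLC25A16 exceeded SLC25A42 in both abemaciclib libraries (ratios of 1.21 and 1.29) and stood below it in both untreated libraries (0.529 and 0.489), but per kilobase it remained the less abundant, at 36.6% and 38.1% of the transcript of the pair after abemaciclib and 20.2% and 18.9% untreated.

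SLC25A51, the carrier that brings NAD into the matrix (ENSG00000122696, chromosome 9, 37879400 to 37904353), had 22.8 and 22.2 CPM after abemaciclib and 8.89 and 9.50 CPM untreated. It rose 2.44-fold (1.29 ± 0.09, edgeR adjusted p = 2.04e-14). Its close copy SLC25A52 was at 0 in all libraries, and SLC25A51 shares exons with AL138752.2 on its own strand. SLC25A32, a carrier tied to folate and FAD, rose by 1.00 ± 0.07 (31 and 32.1 CPM after abemaciclib, 15.3 and 16.3 CPM untreated). SLC25A17, which serves peroxisomes, rose by 0.41 ± 0.07. SLC25A26, the carrier of the methyl donor S-adenosylmethionine, averaged 11.2 CPM after abemaciclib and 13.8 CPM untreated (-0.30 ± 0.09, edgeR adjusted p = 5.41e-03). That call was lost in DESeq2 (adjusted p = 0.0794) and without abemaciclib replicate 1 (adjusted p = 0.0526).

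Of the carriers with no settled substrate, 3 of 6 tested were higher, 2 lower and 1 did not pass, so that 83.3% were called, beside 77.3% of all genes tested. SLC25A46, an outer membrane protein of mitochondrial dynamics, had 27.4 and 26.5 CPM after abemaciclib and 16.3 and 15.6 CPM untreated (0.75 ± 0.07, edgeR adjusted p = 9.64e-11). SLC25A34 (3.95 and 3.45 CPM after abemaciclib, 1.3 and 1.96 CPM untreated) rose by 1.16 ± 0.22, and SLC25A53 (2.04 and 1.80 CPM after abemaciclib, 1.00 and 0.856 CPM untreated) by 1.04 ± 0.29. SLC25A43 was lower, at 23.8 and 24.4 CPM after abemaciclib and 34.3 and 29.9 CPM untreated (-0.41 ± 0.07, edgeR adjusted p = 4.42e-06). It lies 13.9 kb from SLC25A5 on chromosome X, on the same strand, and these neighbours moved in opposite directions. SLC25A45 had 10.3 and 11.1 CPM after abemaciclib and 11.6 and 13.8 CPM untreated (-0.24 ± 0.10, edgeR adjusted p = 0.0347), a call that 6 of 11 alternatives ended. SLC25A35 averaged 5.46 CPM after abemaciclib and 5.29 CPM untreated and did not pass (0.04 ± 0.14).

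SLC25A48 had 1 count over the abemaciclib libraries and 15 over the untreated libraries, after rounding, which is 14.5-fold lower as a ratio of scaled counts (95% exact interval 2.24 to 612.5, counting error only). It was not tested in the main comparison and passed when all genes with 10 or more counts were kept (edgeR adjusted p = 0.0104). It met that filter mainly through its untreated counts, so this p-value is no support beyond the counts themselves. SLC25A47 had 3 counts in all. The median of this class was 0.40 over the tested members. It was 0.06 when genes with 10 or more counts were kept, -0.08 with every gene of 1 or more counts kept, and 0.10 without abemaciclib replicate 1, where more members of the class were tested.

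**Figure D4:**
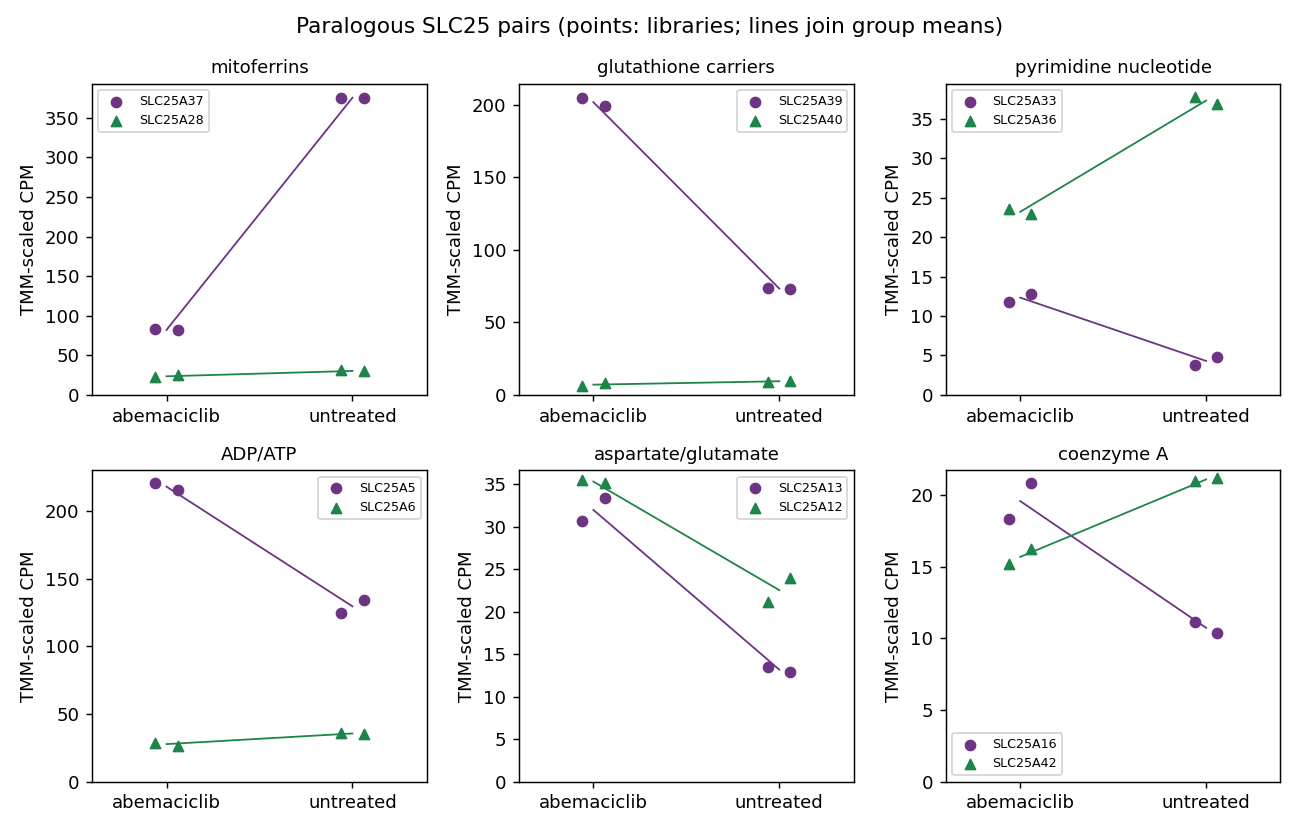
TMM-scaled CPM of 6 paralogous pairs, with 1 point per library and lines joining the group means, abemaciclib left of untreated. SLC25A37 fell by 2.19 and SLC25A28 by 0.36 on the log2 scale. SLC25A39, SLC25A33, SLC25A5 and SLC25A16 rose where SLC25A40, SLC25A36, SLC25A6 and SLC25A42 were lower, and SLC25A13 and SLC25A12 rose together.

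Because paralogues moved apart, the upstream sequences of the pairs that differed in direction most were compared. Shown are the 250 bases before the RefSeq start of SLC25A33 (chr1:9539215-9539464, plus strand), SLC25A36 (chr3:140941586-140941835, plus strand), SLC25A39 (chr17:44324824-44325073, minus strand) and SLC25A40 (chr7:87876361-87876610, minus strand), on GRCh38.p14, 5′ to 3′ on the strand of the gene. Capitals mark the E-box CACGTG, the site of MYC, MAX and the lysosomal factors of the TFE family.
SLC25A33: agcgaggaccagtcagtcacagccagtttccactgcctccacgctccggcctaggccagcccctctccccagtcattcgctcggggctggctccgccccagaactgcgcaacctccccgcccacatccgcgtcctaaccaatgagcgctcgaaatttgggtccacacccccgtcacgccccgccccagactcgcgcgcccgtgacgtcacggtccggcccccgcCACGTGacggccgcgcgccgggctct
SLC25A36: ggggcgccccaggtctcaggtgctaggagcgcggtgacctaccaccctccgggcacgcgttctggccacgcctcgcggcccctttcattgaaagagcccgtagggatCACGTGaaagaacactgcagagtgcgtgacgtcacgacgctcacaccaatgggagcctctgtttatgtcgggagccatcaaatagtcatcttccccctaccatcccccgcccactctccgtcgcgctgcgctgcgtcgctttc
SLC25A39: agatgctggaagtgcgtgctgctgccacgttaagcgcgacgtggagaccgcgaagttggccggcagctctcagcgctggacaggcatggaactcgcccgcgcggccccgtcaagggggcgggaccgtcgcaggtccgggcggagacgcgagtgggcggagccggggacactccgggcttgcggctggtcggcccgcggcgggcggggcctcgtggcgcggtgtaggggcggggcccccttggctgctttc
SLC25A40: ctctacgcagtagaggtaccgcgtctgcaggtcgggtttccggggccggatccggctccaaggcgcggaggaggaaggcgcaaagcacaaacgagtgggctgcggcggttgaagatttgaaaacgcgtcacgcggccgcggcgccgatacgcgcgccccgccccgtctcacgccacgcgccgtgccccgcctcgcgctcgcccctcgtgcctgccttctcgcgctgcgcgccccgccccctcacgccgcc

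SLC25A33 and SLC25A36, which moved in opposite directions, each hold 1 E-box in this window, and SLC25A39 and SLC25A40 hold none. In the RefSeq windows of 250 bases before to 50 after a start, searched on both strands, CACGTG was in 9 of the 40 carriers with a window (22.5%) and in 8.77% of all 27305 genes in the table. It was in 6 of 20 carriers called higher (SLC25A13, SLC25A22, SLC25A33, SLC25A38, SLC25A46 and SLC25A51) and in 2 of 10 called lower (SLC25A26 and SLC25A36). The palindromic site of the respiratory regulator NRF1 was in 5 of 40 carriers (12.5%) and in 6.98% of all genes, and among the called carriers it was in SLC25A3 and SLC25A51. The ERR site TNAAGGTCA was in 0 of 40 carriers and 1.17% of all genes. A gene counted if any of its windows matched, and 7 carriers had more than 1 window. SLC25A37 had no window, and SLC25A31, among the 9 with an E-box, had 3 counts over all libraries. The genes in the table were not matched to the carriers for GC content or type of gene. The differences between these shares were not tested. A match is a stretch of letters and does not show that a factor binds there.

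Genes that work beside the carriers were read from the same fit. Of the family members under other symbols, MTCH2, an insertase of the outer membrane, averaged 102 ± 1.80 CPM after abemaciclib and 36.7 ± 0.736 CPM untreated (SD, n = 2 each) and rose by 1.48 ± 0.04 (edgeR adjusted p = 7.12e-24). MTCH1 rose by 0.17 ± 0.03, UCP2 and UCP3 did not pass, and UCP1 was at 0. Carriers are made in the cytosol and inserted through the TOM complex and the TIM22 pathway, of whose 13 tested genes 8 were higher and 3 lower (84.6% called, beside 77.3% of all genes tested), with a median of 0.56. TIMM8A, a chaperone of the space between the membranes, averaged 10.1 CPM after abemaciclib and 3.62 CPM untreated (1.49 ± 0.14, edgeR adjusted p = 1.71e-11), TIMM8B rose by 1.34 ± 0.11, and TOMM40, the import pore, averaged 83.5 CPM after abemaciclib and 39 CPM untreated. TOMM20, TIMM9 and AGK were the lower ones.

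Other transporters and channels of mitochondria, outside the SLC25 family, had 14 of 21 higher (66.7%, beside 38% of all genes tested) and 5 lower (23.8%, beside 39.3%), with the same median as the carriers to 2 decimals, 0.35. SFXN2, a sideroflexin, averaged 5.04 CPM after abemaciclib and 1.21 CPM untreated (2.08 ± 0.21, edgeR adjusted p = 1.86e-10), LETM1 rose by 0.86 ± 0.05 and ABCB8 by 0.84 ± 0.05. The number lower was 3 with library totals, in DESeq2 and without abemaciclib replicate 2. Of 11 tested enzymes of the shuttles that use carriers, 6 were higher and 3 lower, and the share called, 81.8%, was near the 77.3% of all genes tested. CPT1A and CPT1B make the acylcarnitines that SLC25A20 carries, and they moved apart. CPT1A averaged 59.9 CPM after abemaciclib and 44.3 CPM untreated (0.44 ± 0.05, edgeR adjusted p = 1.89e-09), and CPT2, the enzyme on the matrix side, rose by 0.40 ± 0.08; both were named after their values were seen. CPT1B averaged 10.3 CPM after abemaciclib and 46.5 CPM untreated and fell 4.57-fold (-2.19 ± 0.07, edgeR adjusted p = 2.55e-22), although it shares exons with the read-through gene CHKB-CPT1B. MDH1, the cytosolic malate dehydrogenase of the malate-aspartate shuttle, averaged 211 CPM after abemaciclib and 114 CPM untreated (0.88 ± 0.03), and GPD2, of the glycerol phosphate shuttle, fell by 0.60 ± 0.07. Of 11 regulators of nuclear genes for mitochondria, 4 were higher and 4 lower, which is 36.4% each way, close to the 38% and 39.3% of all genes tested. PPARGC1B, a coactivator of such genes, averaged 10.2 CPM after abemaciclib and 1.68 CPM untreated (2.61 ± 0.15, edgeR adjusted p = 4.55e-16). The rRNA methyltransferase TFB1M averaged 8.45 CPM after abemaciclib and 22.8 CPM untreated, and TFAM, which packages mitochondrial DNA, 22.3 CPM after abemaciclib and 13.9 CPM untreated. The others called lower were NRF1 (-0.34 ± 0.10), ESRRA (-0.33 ± 0.05) and POLRMT (-0.68 ± 0.04). PPRC1 (0.63 ± 0.04) and TFB2M (0.38 ± 0.09) were the others called higher, and PPARGC1A did not pass.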

How the data were processed

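Poly-A RNA of 4 libraries was sequenced, 2 from abemaciclib-treated and 2 from untreated U87MG spheres. The deposited values are expected counts per gene, which the authors made with STAR 2.7.2b and RSEM 1.3.1 on GRCh38, per the submitters' processing notes. No annotation release is stated in the sources used here. Expected counts were rounded and tested with edgeR 4.0.16 (R 4.3.3, limma 3.58.1; filterByExpr, TMM scaling, quasi-likelihood fit, two-sided, Benjamini-Hochberg over 17207 genes, adjusted p under 0.05). The procedure was first run on simulated data in which far fewer genes changed than were called here. That run therefore does not show its error rate on these data. Standard errors of log2 fold changes were derived from the F statistic of the edgeR test, so they are no separate measure of spread. Gene positions and transcript lengths are from GENCODE 29, which matched all 48 carriers, and promoters are from RefSeq on GRCh38.p14. Members and gene lists were chosen with earlier results of these data known. All carriers entered the counts, and 1 is not reported here by name. By rule, up to 10 with the largest and 10 with the smallest log2 fold change among those called, and the most abundant of each class, got per-library values. Companion lists gave up to 3 genes each by that rule. Further carriers, paralogues and regulators were given values after these were seen. The floor for a gene at 0 was 3 counts, and intervals (95%, exact) and floors cover counting error only. Library totals ran from 23684260 to 33418075. Alternatives were RLE scaling, library totals, DESeq2 1.42.0, other filters, MT genes left out, the replicate block, each library left out, and, for shares and levels per kilobase, the longest coding transcript. Protein sequences were not used here.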

Additional observations from a re-analysis of the deposited data

How the results depend on the processing

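Of 462 values (42 carriers under 11 alternatives), 442 kept direction and call, 10 lost a call, 2 gained one and 8 changed sign, and 34 carriers kept both throughout. The sign changed only for carriers that did not pass: SLC25A11 was 0.003 and SLC25A27 0.012 with library totals, and with each library left out in turn SLC25A11 ran from -0.090 to 0.017, SLC25A15 from -0.068 to 0.085, SLC25A27 from -0.227 to 0.108 and SLC25A35 from -0.037 to 0.139 (-0.038 for SLC25A15 without untreated replicate 1, -0.002 for SLC25A35 without abemaciclib replicate 2). The cause was not tested. The carrier median was 0.408 with library totals, which moved the median of all genes to 0.042, and 0.324 with every gene of 1 or more counts kept. That filter gave class medians of 0.849 (ADP/ATP), 0.355 (amino acids) and -0.084 (no settled substrate), as genes with fewer counts entered, and the filter of 10 counts gave 0.055 for the last. The iron and glutathione median was -0.323 with library totals. Leaving out each library in turn gave 0.338 to 0.394 for the carriers, 0.120 to 0.218 for phosphate and ATP-Mg/phosphate, 0.451 to 0.569 for amino acids, -0.520 to -0.252 for iron and glutathione, 0.100 to 0.431 for no settled substrate, and 3 to 4 lower among other transporters, against 5 with all libraries. That number was 3 with library totals and in DESeq2. The longest coding transcript, chosen after seeing the data, gave SLC25A33 39% after abemaciclib and 12.2% untreated, and moved SLC25A3 to rank 4 by level per kilobase in both groups. DESeq2 called 11233 genes and edgeR 13299. Same-numbered libraries did not deviate together (r = -0.00022 over 17207 genes), and the fit with the replicate block called 13108 genes, with 24 carriers higher, 12 lower and a median of 0.355. The 6 carriers that were not tested hold few counts or none, and whether depth or lack of expression accounts for this was not tested.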
